A study of Mus musculus with 8 samples.

Results

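The imprinted genes Meg3, Rian, Mirg, H19, Igf2, Dlk1, Peg3, Cdkn1c, Plagl1 and Grb10 were followed in heart mitochondrial RNA of Tefm knockout mice. These 10 genes were taken by name from a table of 49584 features, each name matched 1 feature, and 9 of the 10 had enough counts to test. Imprinted genes are transcribed mainly from 1 of the parental alleles, a choice kept by DNA methylation at imprinting control regions. Many of them act on fetal growth, and in several mouse organs their RNA falls after birth. In most tissues Meg3, Rian, Mirg, H19, Cdkn1c and Grb10 are expressed from the maternal allele, and Igf2, Dlk1, Peg3 and Plagl1 from the paternal allele.

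The series compared 4 control and 4 knockout mice, and sequenced total RNA of crude heart mitochondria. TEFM is an elongation factor of the mitochondrial RNA polymerase. Controls are titled L/L and carry Tefm +/+ in their genotype field, and knockouts are titled L/L, cre and carry Tefm -/-. An exon of Tefm had been flanked by loxP sites, and in the knockouts cre was driven by the promoter of muscle creatine kinase (creatinine kinase in the labels). This promoter works in striated muscle, so heart cells of other kinds keep the gene. No source used here gives the age of the mice. The series text speaks of 4 mice in each group, so replicates were taken as animals.

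The libraries held 21108165 to 27403415 counts, of which 6825329 to 7596951 came from nuclear genes in controls and 10331611 to 13204546 in knockouts. The share of mitochondrial DNA genes was 72.3% to 74.0% in controls, 59.3% in knockout replicate 1 and 38.7% to 44.2% in the other knockouts. Levels are in CPM, counts scaled to a common library size with TMM factors. Tefm itself held 110, 117, 106 and 144 counts in controls and 166, 233, 230 and 245 in knockouts, and was not called (log2 fold change 0.14, SE 0.11, edgeR adjusted p = 0.324), so this check of the labels, which sums all exons, shows no loss of the gene. The 10 cardiomyocyte markers were all tested, none was at 0, and their sum was 63103 to 66978 CPM in controls and 38970 to 51138 in knockouts. Crude mitochondria carry RNA of other compartments and cell types. Fewer cells of a type, less RNA per cell and a change in what co-purifies cannot be told apart in these values.

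The imprinted genes moved in both directions. Peg3, Plagl1 and Grb10 were about double their control level, Cdkn1c, Rian and Mirg were lower, and Meg3, H19 and Igf2 did not pass the test. So 3 of 9 tested members rose and 3 fell (edgeR quasi-likelihood test, Benjamini-Hochberg adjusted p under 0.05). Of all 17891 genes tested 26.1% rose and 23.9% fell, so these shares lie near the background of the comparison. For 4 members control and knockout libraries held separate ranges, against 45.4% of all genes tested. By expressed allele, as named above and not measured here, 1 of 6 maternally expressed members rose and 3 fell. Of 3 paternally expressed members 2 rose and 0 fell. The median log2 fold change was -0.12 over the 9 tested members and -0.01 over all genes tested.

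TMM scaling sets these changes against the bulk of the genes tested. Scaled by library totals, which hold the mitochondrial DNA share, the median of all genes was 0.97 instead of -0.01. On that scale Rian stood at 0.33 and Mirg at 0.066, which is above 0, and the call of Cdkn1c was lost at -0.37. Relative to the shifted median the values were -0.64 for Rian, -0.91 for Mirg and -1.34 for Cdkn1c.

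**Figure D1:**
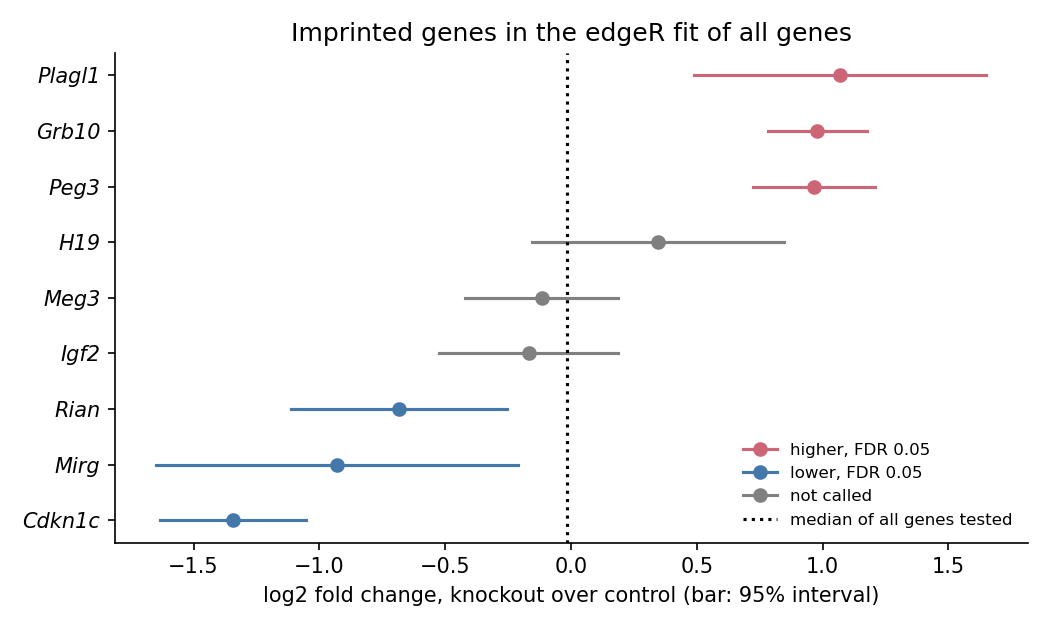
Log2 fold change of each tested imprinted gene, knockout over control (points), with its 95% interval (bars) from the edgeR fit of all genes. The intervals of Peg3, Plagl1 and Grb10 lie above 0, those of Cdkn1c, Rian and Mirg below 0, and those of H19, Igf2 and Meg3 include 0.

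The start regions of the members are shown first, as a description of their letters. RefSeq sequences of GRCm38.p6 were searched on both strands for the letters TGCCGC (bound by ZFP57, which maintains imprints), GGGGCCCC (bound by PLAGL1) and GCCATC (the YY1 core), from 250 bases before to 50 bases after each start. Of 32851 such windows 11.6% held TGCCGC, 1.08% held GGGGCCCC and 14.1% held GCCATC. Windows were found for 8 of the 10 members, and those of H19 and Cdkn1c are not shown here. The matches are printed with the letters in capitals, 30 bases each in the direction of the gene, so that GCGGCA is TGCCGC on the other strand. The 3 letter patterns do not overlap in these sites.
Peg3, chr7:6730602-6730631, minus strand: gactctgcttgGGGGCCCCtaacactgact
Plagl1, chr10:13090730-13090759, plus strand: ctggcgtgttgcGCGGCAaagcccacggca
Plagl1, chr10:13090705-13090734, plus strand: ctcgtccatgcaGCCATCcccttggctggc
Grb10, chr11:12037379-12037408, minus strand: gggtgcggggagGCGGCAggaagggaaggg
Grb10, chr11:12027951-12027980, minus strand: actgtttttatcGCCATCtacagtttctgt
Meg3, chr12:109540794-109540823, plus strand: gccaggggcactGCGGCAgatttttttttc
Igf2, chr7:142661224-142661253, minus strand: tacggtgtcccaGCGGCAgcacagattttg
Peg3 holds the PLAGL1 letters, Plagl1 the ZFP57 and YY1 letters in its 1 window, and Grb10 the ZFP57 letters in 1 window and the YY1 letters in the other. Meg3 holds the ZFP57 letters in 1 of 2 windows and Igf2 in 1 of 4, and neither gene was called. In all, 6 of the 13 windows of the members and 5 of their 8 genes hold a pattern, against 24.6% of all windows and 27.2% of all genes. The genes were chosen as imprinted and the ZFP57 letters for a factor that maintains imprints, so this comparison is not independent of the choice. Genes with more windows have more places for a match, and the start of Cdkn1c, the member with the largest fall, was not compared here. The windows of Rian, Mirg and Dlk1 hold none of them, which says only that these letters are not in these 300 bases. A match is a description of letters and not a measured binding site.

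Grb10 has 2 RefSeq starts of unlike composition, and Meg3 has the start of the noncoding cluster, so the 150 bases before these starts are given.
Grb10, chr11:12037421-12037570, minus strand: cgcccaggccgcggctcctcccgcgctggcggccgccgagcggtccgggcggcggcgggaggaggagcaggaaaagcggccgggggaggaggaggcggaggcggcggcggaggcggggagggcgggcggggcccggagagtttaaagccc
Grb10, chr11:12027972-12028121, minus strand: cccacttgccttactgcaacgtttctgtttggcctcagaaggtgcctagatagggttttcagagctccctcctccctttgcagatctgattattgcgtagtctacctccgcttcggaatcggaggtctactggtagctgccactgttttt
Meg3, chr12:109540846-109540995, plus strand: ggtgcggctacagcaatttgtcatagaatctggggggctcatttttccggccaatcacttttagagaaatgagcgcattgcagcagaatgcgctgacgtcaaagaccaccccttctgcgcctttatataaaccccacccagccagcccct
The CG dinucleotide, the place of DNA methylation, occurs 23 times in the first Grb10 stretch and 5 times in the second. In the full 300-base windows the counts were 45 and 9, against a median of 7 over all windows. The first Meg3 window held 13 and that of Rian 0. Counts per gene do not separate the starts of Grb10, so none of the values below belongs to 1 of them.

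The noncoding RNAs Meg3, Rian and Mirg lie in this order on the plus strand of chromosome 12, in the Dlk1-Dio3 domain. Meg3 is a long noncoding RNA whose start lies downstream of the domain's control region, which is between Dlk1 and Meg3, Rian hosts C/D box small nucleolar RNAs, and Mirg hosts microRNAs. All 3 are transcribed from the maternal allele, and are often described as parts of 1 long transcription unit. Rian (ENSMUSG00000097451.9, chromosome 12, 109603940 to 109661716 in GRCm38) was at 4.53, 4.87, 4.48 and 5.43 CPM in controls 1 to 4. In knockouts 1 to 4 it was at 2.10, 2.34, 3.12 and 4.41 CPM. All 4 knockout libraries lay below all 4 controls, with knockout replicate 4 just below the lowest control. Its log2 fold change was -0.68 (SE 0.20, edgeR adjusted p = 0.0111), from 4.83 ± 0.438 to 2.99 ± 1.04 CPM (SD, 4 mice per group).

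Mirg (ENSMUSG00000097391.8, chromosome 12, 109729764 to 109749460) was the rarest member with counts in every library, with 87 counts over the controls and 76 over the knockouts. It was at 0.896, 0.838, 1.11 and 1.69 CPM in controls and at 0.497, 0.318, 0.923 and 0.630 CPM in knockouts. Knockout replicate 3 lay above 2 controls, so the groups overlap. The log2 fold change was -0.93 (SE 0.33, edgeR adjusted p = 0.0328). The call was lost by DESeq2 (-0.92, adjusted p = 0.0518), and also without control replicate 3 (-0.94, adjusted p = 0.0607), control replicate 4 (-0.67, adjusted p = 0.145), knockout replicate 2 (-0.71, adjusted p = 0.0897) or knockout replicate 4 (-0.95, adjusted p = 0.0561).

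Meg3 (ENSMUSG00000021268.17, chromosome 12, 109541001 to 109571726) was at 6.96, 5.45, 6.86 and 6.68 CPM in controls and at 4.59, 6.05, 5.83 and 7.37 CPM in knockouts. The knockout libraries lay on both sides of the controls. The log2 fold change was -0.12, with a 95% interval of -0.42 to 0.19 (edgeR adjusted p = 0.514). The antisense feature Gm26906 shares 6.79% of the exon bases of Meg3. It held 40 counts in controls and 57 in knockouts, against 494 and 765 for Meg3.

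Ratios within a library do not depend on the scaling between libraries. The log2 ratio of Rian to Meg3 was -0.62, -0.16, -0.61 and -0.30 in controls and -1.12, -1.36, -0.90 and -0.74 in knockouts. The groups do not overlap, and the knockout mean was lower by a log2 difference of -0.61 (SE 0.18; two-sided exact permutation test over 70 relabelings, p = 0.0286, the smallest it can give). After Benjamini-Hochberg adjustment over the 5 ratios examined it was 0.143, which does not pass. With 4 mice per group 1 ratio alone at the smallest p cannot pass this adjustment, so no conclusion is drawn from that. For Mirg to Meg3 the difference was -0.84 (SE 0.38, exact permutation p = 0.0857, adjusted p = 0.143) and for Mirg to Rian -0.23 (SE 0.33, exact permutation p = 0.429, adjusted p = 0.536). The lower ratio of Rian to Meg3 was thus seen in every knockout library, and the adjusted test could not decide on it. The ratio of Dlk1 to Meg3 was also computed and is not read, since Dlk1 had almost no counts.

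**Figure D2:**
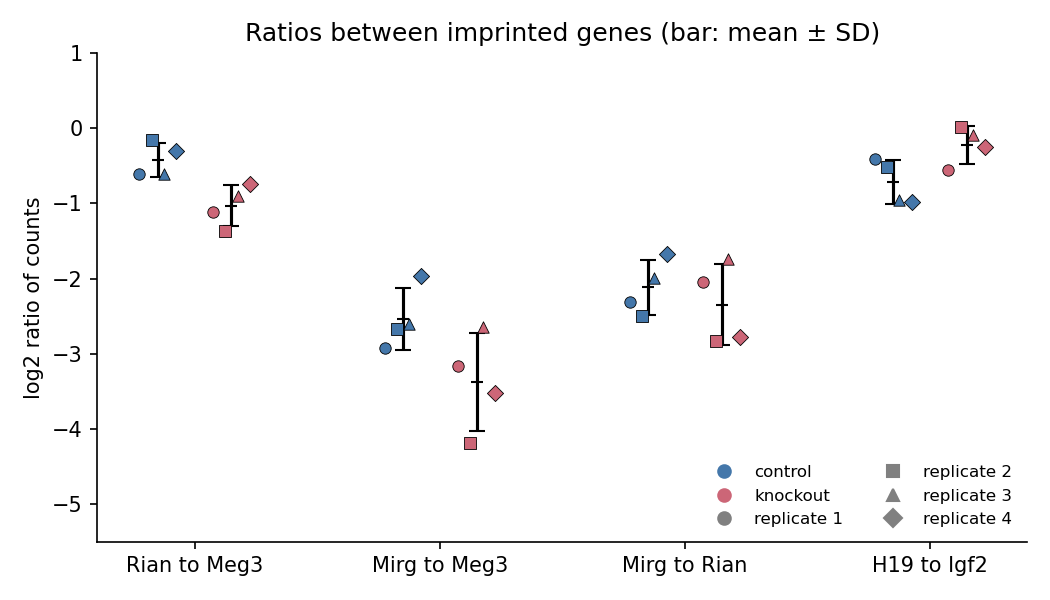
Log2 ratio of raw counts within each library (0.5 added to each count) for 4 pairs of imprinted genes, with controls in blue, knockouts in red, 1 marker shape per replicate, and the group mean ± SD (n = 4 each). For Rian to Meg3 the knockout libraries lie between -1.36 and -0.74, below all controls, and for the other pairs the groups overlap.

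The small RNA features of this domain held almost no counts. No source used here says how reads on bases shared with a host exon were counted, so a feature without counts is not read as absent. Between the start of Meg3 and the end of Mirg, over 208 kb, lie 66 microRNA features with 63 counts in controls and 51 in knockouts in all, and 27 of them held no count. The 23 small nucleolar RNA features held 14 and 20 counts, and 11 held none. Only the microRNA feature Gm25252 and the small nucleolar RNA feature Gm23600 reached 10 counts over the 8 libraries. Mature microRNAs are shorter than the inserts that such libraries usually hold, and their levels were not measured here. Some sequences encoded in Mirg are given with the seed, bases 2 to 8, in capitals, to show that the host carries microRNAs with unlike seeds, and are from RefSeq.
mmu-miR-134-5p: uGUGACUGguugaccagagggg
mmu-miR-377-3p: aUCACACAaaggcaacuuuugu
mmu-miR-410-3p: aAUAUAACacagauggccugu
Among the 112 mature microRNAs that RefSeq lists in the interval there are 102 different seeds. Mir337 and Mir3544, which lie on opposite strands of the same bases, held the same counts in every library (1 in control replicate 1 and 2 in knockout replicate 2). Each held 3 counts in all, too few to say how reads on overlapping features were counted. Mir675, which shares 3.41% of the exon bases of H19 on the same strand, held 0 counts. H19 held 465 in controls and 1007 in knockouts.

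Dlk1, a paternally expressed membrane protein of the Notch ligand family that restrains differentiation, is the first gene of the same domain. It held 0 counts in all 4 controls and in knockouts 2 to 4, and 1 count in knockout replicate 1. A count of 0 allows up to 0.114 CPM of the library total in a control and up to 0.142 in a knockout, for counting error only. These floors do not use the TMM factors, so neither they nor their order can be set beside the other levels. No difference was detectable at this depth. Rtl1, a paternally expressed gene antisense to microRNAs of the domain, was at -0.14 (SE 0.34, edgeR adjusted p = 0.759), and the value turned to 0.085 without control replicate 1 and to 0.052 without control replicate 4. Dio3, the deiodinase gene at the far end, held 4 counts in controls and 25 in knockouts and did not pass the filter on low counts.

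H19 and Igf2 lie next to each other on chromosome 7 and share enhancers, with an insulator at the control region between them. H19 is a maternally expressed noncoding RNA that hosts miR-675, and Igf2 encodes a fetal growth factor of the insulin family. Igf2 (ENSMUSG00000048583.16, chromosome 7, 142650766 to 142666816, minus strand) was at 10.2, 9.38, 9.96 and 10.1 CPM in controls and at 6.88, 7.15, 12.8 and 8.29 CPM in knockouts. The controls lay close together, while 3 knockouts lay below all of them and knockout replicate 3 above all of them. The log2 fold change was -0.17 (95% interval -0.52 to 0.19, edgeR adjusted p = 0.421). Without knockout replicate 3 it was -0.41 and passed the test (adjusted p = 0.00653). The SD of log2 CPM was 0.05 in controls and 0.41 in knockouts.

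H19 (ENSMUSG00000000031.15, chromosome 7, 142575529 to 142578143, minus strand) was at 7.64, 6.55, 5.15 and 5.08 CPM in controls and at 4.66, 7.21, 11.97 and 6.96 CPM in knockouts. Knockout replicate 3 was again the highest library and knockout replicate 1 the lowest. The log2 fold change was 0.35 (95% interval -0.15 to 0.85, edgeR adjusted p = 0.235). Without knockout replicate 1 it was 0.51 and passed (adjusted p = 0.0253), and without knockout replicate 3 it was 0.05 (adjusted p = 0.836). The log2 ratio of H19 to Igf2 was -0.71 ± 0.293 in controls and -0.22 ± 0.249 in knockouts (SD, 4 mice per group), a difference of 0.49 (exact permutation p = 0.0857, adjusted p = 0.143) with overlapping groups. The antisense feature Gm27786 shares 2.85% of the exon bases of H19 and held 28 and 60 counts, against 465 and 1007 for H19. The Mir675 feature lies within an exon of H19 and held 0 counts in all 8 libraries. Its mature arms are shown as the encoded product that these libraries did not measure.
mmu-miR-675-5p: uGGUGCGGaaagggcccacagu
mmu-miR-675-3p: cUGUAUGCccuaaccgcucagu
The nearest called neighbour of H19 outside the pair, Prr33, stood at -2.13 (SE 0.11, edgeR adjusted p = 2.82e-09), 68.8 kb away.

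**Figure D3:**
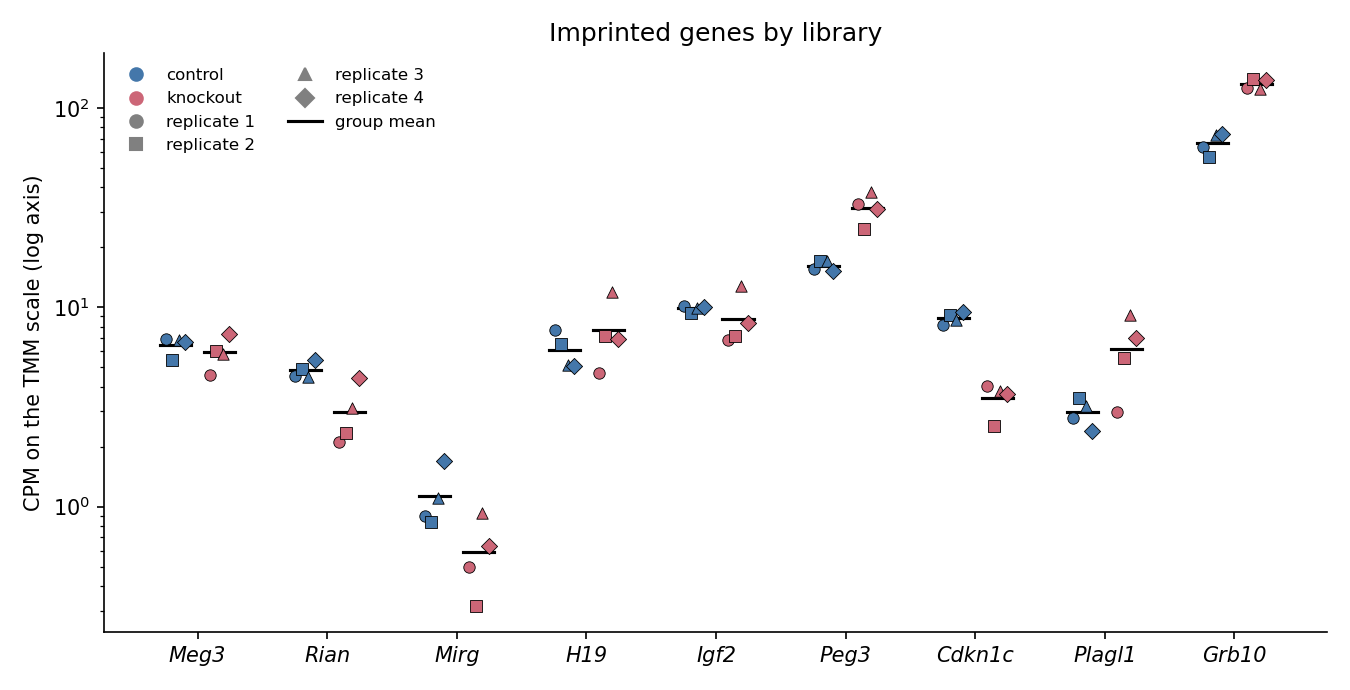
CPM of the 9 tested imprinted genes in each library on a log axis, with controls in blue, knockouts in red, 1 marker shape per replicate and a line at the group mean. Grb10 and Peg3 are higher and Cdkn1c and Rian lower in all knockouts, and for Igf2 the controls lie together at 9.38 to 10.2 CPM while the knockouts spread from 6.88 to 12.8 CPM.

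Grb10, an adaptor protein that binds the insulin and IGF1 receptors and dampens their signal, was the most abundant member. Its 5101 counts in controls and 16804 in knockouts also make it the best measured. Grb10 (ENSMUSG00000020176.17, chromosome 11, 11930508 to 12038683, minus strand) was at 63.8, 56.6, 73.3 and 74.1 CPM in controls and at 126, 139, 125 and 138 CPM in knockouts. Every knockout library was above every control, and the SD of log2 CPM was 0.08 in knockouts and 0.18 in controls. It rose 1.97-fold (log2 fold change 0.98, SE 0.09, edgeR adjusted p = 9.99e-07), from 66.9 ± 8.34 to 132 ± 7.76 CPM (SD, 4 mice per group). Its neighbour Ddc, a dopa decarboxylase gene that shares the imprinted domain, went the other way (-2.49, SE 0.35, edgeR adjusted p = 5.01e-05), with 118 counts in controls and 34 in knockouts.

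Of 23 genes of the insulin-like growth factor axis 19 were tested, 8 rose, 5 fell and 6 did not pass, with a median log2 fold change of 0.23, where 26.1% of all genes tested rose and 23.9% fell. Scaled by library totals, by which 14066 of all genes rose and 480 fell, the list had 14 higher and 1 lower. The receptor gene Igf1r, through which IGF1 and IGF2 signal, rose (1.09, SE 0.09, edgeR adjusted p = 4.86e-07), from 27.1 to 57.9 CPM. The ligand gene Igf1 rose as well (1.17, SE 0.27, adjusted p = 0.00239). Pappa, a protease that frees IGFs from binding proteins, rose most (2.52, SE 0.22). Insr, the insulin receptor gene, rose by 0.32 (SE 0.11, adjusted p = 0.029), a call that was lost without control replicate 2, 3 or 4 or knockout replicate 3 (adjusted p = 0.0567 to 0.0815). Igf2r, which takes IGF2 up for breakdown and is itself imprinted, was at 0.10 (adjusted p = 0.298). Grb14, the nearest relative of Grb10, fell (-1.44, SE 0.14, adjusted p = 1.21e-06), and Irs1, a receptor substrate, fell too (-1.19, SE 0.11, adjusted p = 8.2e-07), but was not called when scaled by library totals (-0.21).

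Cdkn1c, the imprinted inhibitor of cyclin-dependent kinases also called p57, had the largest change of the members. Cdkn1c (ENSMUSG00000037664.13, chromosome 7, 143458339 to 143461050, minus strand) was at 8.17, 9.12, 8.63 and 9.47 CPM in controls and at 4.01, 2.55, 3.78 and 3.66 CPM in knockouts. All knockout libraries lay below all controls. It fell 2.54-fold (log2 fold change -1.34, SE 0.14, edgeR adjusted p = 1.94e-06), from 8.85 ± 0.568 to 3.50 ± 0.652 CPM (SD, 4 mice per group). The antisense feature Gm44732 shares 30.7% of the exon bases of Cdkn1c, and its counts were 33.9% of those of Cdkn1c in controls and 38.0% in knockouts. It stood at -1.18 (SE 0.21, adjusted p = 0.00029). No source used here says whether the libraries keep strand, so both values may rest on the same reads.

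Within 500 kb of Cdkn1c 26 features were tested, of which 5 rose and 9 fell, against 26.1% and 23.9% of all genes, and nothing is read from these counts. Kcnq1, a potassium channel gene 31.3 kb away, fell (-0.85, SE 0.11), and so did Kcnq1ot1, the paternally expressed noncoding RNA that silences the domain in cis (-0.54, SE 0.08, edgeR adjusted p = 0.000122), but when scaled by library totals they stood at 0.12 and 0.47. Of 20 cell cycle inhibitors and their partners 14 were tested, 4 rose and 2 fell, near the shares of all genes (26.1% and 23.9%). Scaled by library totals 13 were higher and 0 lower. Cdkn1a, the p53-responsive inhibitor p21, rose (2.73, SE 0.11, adjusted p = 4.85e-10), from 5.66 ± 1.05 to 37.6 ± 2.75 CPM, and the cyclin gene Ccnd2 rose as well (1.73, SE 0.09, adjusted p = 3.47e-09). Of 22 proliferation genes 17 were tested, 1 rose and 5 fell, against 26.1% and 23.9% of all genes, and scaled by library totals 8 were higher and 1 lower. The gene that rose was Pcna, the sliding clamp of DNA replication (0.34, SE 0.12, edgeR adjusted p = 0.0259), and its call was lost without control replicate 2, 3 or 4 or knockout replicate 2 (adjusted p = 0.0604 to 0.0874). Cdkn1c and Cdkn1a, of the same inhibitor family, thus went in opposite directions.

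Peg3 encodes a large zinc finger protein expressed from the paternal allele, and Plagl1, also called Zac1, a zinc finger transcription factor known to act on other imprinted genes. Peg3 (ENSMUSG00000002265.16, chromosome 7, 6703892 to 6730431, minus strand) was at 15.5, 16.98, 17.04 and 15.2 CPM in controls and at 32.8, 24.8, 37.8 and 31.0 CPM in knockouts. All knockout libraries lay above all controls. It rose 1.95-fold (log2 fold change 0.97, SE 0.11, edgeR adjusted p = 7.87e-06), from 16.2 ± 0.973 to 31.6 ± 5.39 CPM (SD, 4 mice per group). Zim1, a maternally expressed zinc finger gene 7.44 kb away, went the other way (-2.01, SE 0.30, edgeR adjusted p = 7.95e-05), with 186 counts in controls and 77 in knockouts.

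Plagl1 (ENSMUSG00000019817.18, chromosome 10, 13060504 to 13131694, plus strand) was at 2.79, 3.51, 3.21 and 2.39 CPM in controls and at 2.98, 5.59, 9.15 and 7.03 CPM in knockouts. Knockout replicate 1 lay among the controls, and the other 3 knockouts lay above all of them. The log2 fold change was 1.07 (SE 0.27, edgeR adjusted p = 0.00456), 1.28 without knockout replicate 1 and 0.82 without knockout replicate 3. The 10 fibroblast markers were all tested, none was at 0, and 5 rose and 1, Dpt, fell. Their sum was 287 to 299.9 CPM in controls, 278 in knockout replicate 1, and 457, 524 and 533 in knockout replicates 2, 3 and 4. The 7 atrial markers, of which 5 were tested, 3 rose and none was at 0, summed to 34.5 to 56.3 CPM in controls and to 925, 1538, 2143 and 1737 CPM in knockout replicates 1 to 4. Log2 fold changes of those tested ran from 0.03 to 8.53. The list did not move together, and its sum is not read as an amount of atrial tissue. Knockout replicate 1 thus had the lowest level of Plagl1 and of both marker lists among the knockouts, and also the highest share of mitochondrial DNA counts (59.3%). Knockout replicate 3 had the highest Plagl1 and atrial marker levels and the lowest mitochondrial share (38.7%). The part of these differences in the result was not tested. Among the markers that rose were Postn (2.92, SE 0.24), which encodes periostin, and Col1a2 (1.16, SE 0.23). Of the 8 genes tested within 500 kb of Plagl1 6 rose and 2 fell, where 26.1% of all genes rose and 23.9% fell. With so few neighbours this is a count only, and the nearest, Ltv1, a ribosome assembly gene, rose by 0.98 (SE 0.14).

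The knockout libraries differed from each other more than the controls did for most members. The SD of log2 CPM was larger in knockouts for 8 of the 9 tested genes, with Grb10 as the exception. Matching shares over all genes tested are not given for this or the next counts, so none is read as particular to the members. Over the 9 genes knockout replicate 3 was the highest knockout library for 5 (Mirg, H19, Igf2, Peg3 and Plagl1), and knockout replicate 1 the lowest for 5 (Meg3, Rian, H19, Igf2 and Plagl1). The highest knockout library of Plagl1 was 3.07 times the lowest, against 1.47 times in controls. For Igf2 these ratios were 1.85 and 1.08. H19 and Igf2 thus share their highest and lowest knockout library with Plagl1 and with the atrial markers. The sum of the 10 skeletal muscle markers, of which 2 were tested, had the same extremes. It was 540 to 611 CPM in controls and 651, 815, 1178 and 1144 CPM in knockout replicates 1 to 4. The mitochondrial DNA share had these extremes in reverse (59.3% in replicate 1 and 38.7% in replicate 3). The part of any of these was not tested for H19 and Igf2 either.

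**Figure D4:**
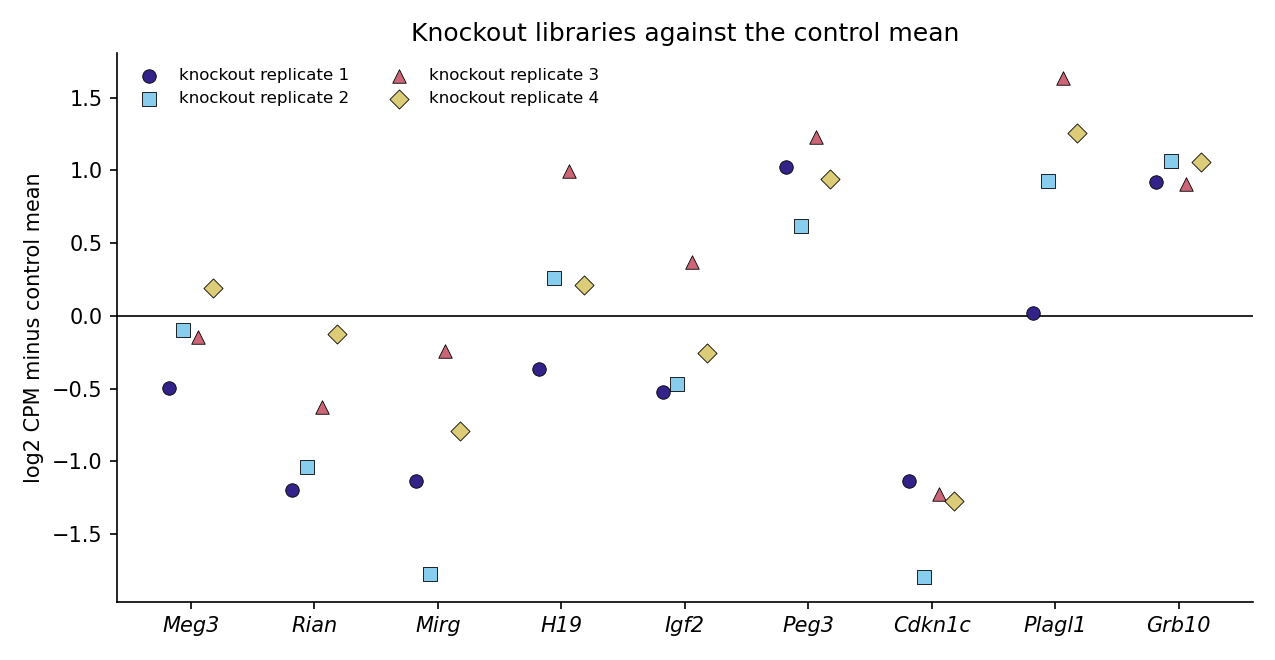
Log2 CPM of each tested imprinted gene in the 4 knockout libraries minus the mean log2 CPM of the controls (line at 0), 1 colour and marker per library. Knockout replicate 1 lies near 0 for Plagl1 and lowest for H19 and Igf2, replicate 3 is highest for Plagl1, H19 and Igf2, and the 4 libraries lie together for Grb10.

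Levels can be compared between genes per length of their exons, for which the union of all GENCODE exons was used. In controls the order was Grb10 (7.36 ± 0.917 CPM per kb), Cdkn1c (4.34 ± 0.279), H19 (2.48 ± 0.499), Igf2 (1.73 ± 0.0618), Peg3 (1.21 ± 0.0730), Plagl1 (0.381 ± 0.0624), Meg3 (0.359 ± 0.0387), Rian (0.265 ± 0.0240) and Mirg (0.155 ± 0.0536). Only the neighbours Plagl1 and Meg3 overlapped in their libraries. In knockouts Peg3 (2.37 ± 0.404 CPM per kb) stood before Cdkn1c (1.72 ± 0.320). There the libraries of H19, Peg3, Cdkn1c and Igf2 overlapped from each to the next, as did those of Plagl1 and Meg3 and of Rian and Mirg. The union of exons is long for Meg3 and Rian, at 18089 and 18234 bases, and a transcript that uses fewer exons would have a higher level than this value.

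Other imprinted genes outside the 10 also moved in both directions. They were listed by the allele named for them, which was not measured here and need not hold in heart. Of 26 genes listed as maternally expressed 18 were tested, 3 rose and 8 fell, with a median log2 fold change of -0.18, against 26.1% and 23.9% of all genes. Scaled by library totals the balance turned to 11 higher and 3 lower. The organic cation transporter gene Slc22a3 fell most (-3.06, SE 0.27, edgeR adjusted p = 5.26e-07), with 174 counts in controls and 34 in knockouts, and Ppp1r9a, which encodes neurabin, fell (-0.67, SE 0.06), but stood at 0.33 when scaled by library totals. Of 30 genes listed as paternally expressed 22 were tested, 3 rose and 6 fell, with a median of -0.22, against 26.1% and 23.9% of all genes. Scaled by library totals 18 were higher and 0 lower. Peg10, a gene derived from a retrotransposon, rose (adjusted p = 2.18e-06), from 1.17 ± 0.177 to 4.72 ± 1.10 CPM (SD, 4 mice per group). Airn, the noncoding RNA that silences Igf2r in cis, fell (-0.86, SE 0.10), and Peg13 fell (-0.61, SE 0.09), while scaled by library totals they stood at 0.11 and 0.37.

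Of 25 genes that keep or remove imprints and other chromatin marks 23 were tested, 2 rose and 11 fell, with a median log2 fold change of -0.26, against 26.1% and 23.9% of all genes. Scaled by library totals 17 were higher and 1 lower, and 1 rose in place of 2 without control replicate 1 or control replicate 4. Tet1, which oxidises methylated cytosine, fell (-2.13, SE 0.11, edgeR adjusted p = 2.07e-09), from 20.6 ± 2.15 to 4.68 ± 0.491 CPM. Dnmt3a, a DNA methyltransferase gene, fell (-1.25, SE 0.09, adjusted p = 4.93e-08), and so did Jarid2, a partner of Polycomb (-0.92, SE 0.08), but scaled by library totals Dnmt3a was not called (-0.23) and Jarid2 stood at 0.066. DNA methylation was not measured here. Of the Notch pathway genes listed beside Dlk1 14 of 15 were tested, 1 rose and 6 fell, against 26.1% and 23.9% of all genes, and scaled by library totals 13 were higher and 0 lower. The gene that rose was Hes1, a Notch target (0.52, SE 0.14, edgeR adjusted p = 0.00621), and 2 genes of the list rose without control replicate 3 or without knockout replicate 1, 2 or 4. Of 15 growth genes listed beside Plagl1 12 were tested, 3 rose and 3 fell, near the shares of all genes, and scaled by library totals 10 were higher and 0 lower.

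**Figure D5:**
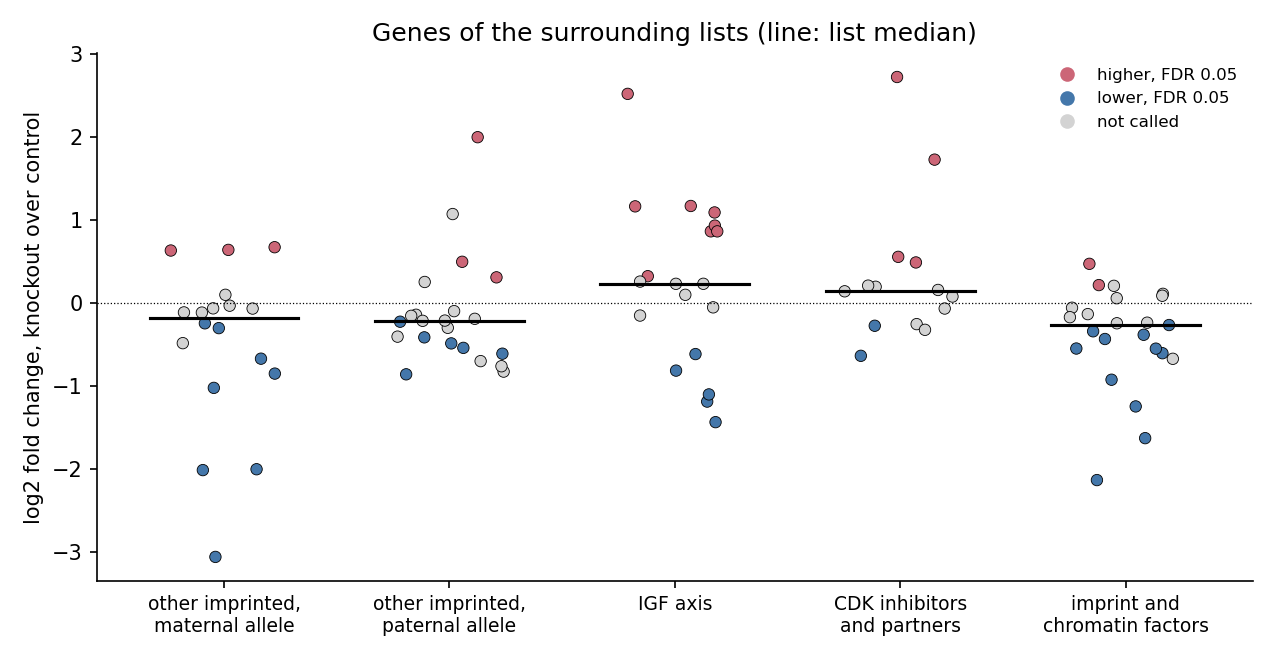
Log2 fold change of each tested gene in 5 lists around the imprinted genes (points; red higher, blue lower at FDR 0.05, grey not called), with a line at the list median and a dotted line at 0. Called genes lie on both sides of 0 in every list, and the medians run from -0.26 to 0.23.

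The genes whose profiles over the 8 libraries were most like those of the called members were found by the root mean square difference of centred log2 CPM, among 12723 or 12724 named genes. For Grb10 the nearest was Sla2 (0.0772 log2 units), for Cdkn1c Dnajc28 (0.0816), for Peg3 Cpm (0.108), for Rian Slc25a35 (0.138) and for Mirg Zfp583 (0.240). For Plagl1 the nearest were Tnfrsf1b (0.174), Fbn1 (0.220) and Adamts2 (0.225), of which Fbn1 encodes fibrillin and Adamts2 a procollagen protease. None of the 3 nearest genes of any called member was another of the 10. With 3 genes taken from so many, this does not say whether the members share a profile.

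The authors' deposited table gave the same directions for the 9 tested members. In that deposited table of the authors, adjusted p was under 0.05 for 5 members, against 35.4% of the genes with an adjusted p there. The authors' deposited table lists Mirg at a log2 fold change of -0.83 (adjusted p = 0.0524), Cdkn1c at -1.30 and Grb10 at 0.99.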

How the data were processed

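Whole-number counts per gene, as the authors deposited them for each mouse, were the input. Per the submitters' processing notes the build was mm10 and the tools were featureCounts, Bowtie2, DESeq2 1.14.1, bedtools, SAMtools 1.3.1 and R 3.3.2, without a stated role. The authors' deposited table of the comparison holds a mean signal, log2 fold changes, p-values and the score of a test, and its settings are not stated.

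edgeR 4.0.16 in R 4.3.3 fitted genotype to all libraries by quasi-likelihood, after TMM factors and filterByExpr at 10 counts, and p-values of 17891 genes were adjusted together by Benjamini-Hochberg, with 0.05 as the threshold. The SE is the size of the log2 fold change divided by the square root of F. CPM use the TMM factors. In simulated counts for this comparison (17411 genes tested, 50 genes at each fold), 46% of the genes at 1.5-fold, 86% at 2-fold and 96% each at 4-fold and 8-fold were found, and 7 of 169 calls were false. The simulation gave all genes 1 common spread and changed 200 genes, whereas 8943 of 17891 genes were called in the data. Its shares are thus a check of the code and not rates for this comparison. Ratios used 0.5 added to each count.

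Alternatives were DESeq2 1.42.0, RLE factors, library totals, nuclear genes alone, no filter, a minimum of 50 counts, a block for the replicate number, each library left out once, and 5 added to counts in ratios. Positions and exon lengths are from GENCODE M21 (GRCm38), which has the same ID version for 8 of the 10 members. Figures were drawn with matplotlib 3.10.9. All 10 members and Tefm are named. Other names follow rules: up to 4 called genes of a list by smallest p, Igf1r, Igf2r and Insr, the nearest called neighbours, the nearest profiles, and small RNA features with 10 counts. Igf1, Postn, Col1a2, Rtl1, Dio3, Pcna and Hes1 were named after their values were seen. The members and lists were chosen with earlier results of these data known. Floors cover counting error only.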

Additional observations from a re-analysis of the deposited data

How the results depend on the processing

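Of the 9 tested members Peg3, Plagl1 and Grb10 kept direction and call under all 15 alternatives run, with log2 fold changes of 0.87 to 1.96, 0.82 to 2.12 and 0.90 to 1.98. The upper ends are from library totals, where the median of all genes was 0.97. Rises are thus favoured over falls on that scale. Of the members that fell, Cdkn1c and Rian each kept their call under 14 of 15 alternatives, all but library totals, and Mirg under 8 of 14. Library totals as the only scaling moved most results: 14066 genes rose and 480 fell, against 4669 and 4274, and 6 imprinted genes were called higher and 0 lower, against 3 and 3. On that scale Meg3 was at 0.90, Rian at 0.33, Mirg at 0.066, Igf2 at 0.85, Ppp1r9a at 0.33, Kcnq1 at 0.12, Airn at 0.11, Kcnq1ot1 at 0.47, Peg13 at 0.37, Jarid2 at 0.066, Dpt at 0.32, Rtl1 at 0.85, Slc25a35 at 0.33 and Zfp583 at 0.085, all with a turned sign. The scale itself holds the fall of the mitochondrial DNA share. Rtl1 ran from -0.34 to 0.085 when 1 library was left out, and was above 0 without control replicate 1 (0.085) and control replicate 4 (0.052).

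Leaving out 1 library gave 4307 to 4909 higher and 3818 to 4716 lower genes, 3 or 4 members called higher (4 without knockout replicate 1) and 2 to 4 called lower (4 without knockout replicate 3). The replicate number as a block gave 3 higher and 3 lower members and 4580 higher and 4253 lower genes. Deviations of same-numbered libraries correlated at -0.0136 to 0.0497, and 1 of 4 controls and 1 of 4 knockouts correlated best with its own number, so the numbers were not read as pairs. With sign changes of the 4 paired differences the ratio of Rian to Meg3 gave an exact permutation p of 0.125, the smallest that design can give. Depth limits the values of Mirg, Dlk1, Rtl1, Dio3 and the small RNA features. No library of a group of 4 stood apart by Dixon's test in 26 groups of values.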
